A study of Mus musculus with 2 samples.

Results

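The genes described here are 6 protein-coding genes of microRNA biogenesis, Dicer1, Dgcr8, Xpo5, Tarbp2, Eif2c1 and Eif2c2, out of 22350 protein-coding genes annotated on the autosomes and X of mouse build NCBIM37. They were chosen by name, and all 6 were found in the annotation under these symbols; Eif2c1 and Eif2c2 are also written Ago1 and Ago2. Tags come from 2 libraries of sequenced chromatin immunoprecipitates (ChIP-seq), made from mouse embryonic fibroblasts of the 3T3 type that lack the endogenous cyclin D1 gene (Ccnd1-/-) and carry FLAG-tagged cyclin D1 delivered by an MSCV retroviral vector. The vector, not the Ccnd1 promoter, therefore sets the amount of tagged protein in both libraries. The cells were untreated, and 1 library was made with the anti-FLAG M2 antibody and 1 with normal mouse IgG. Every value below compares these 2 libraries, without a replicate, and all intervals are exact 95% intervals that cover counting error only.

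MicroRNAs are cut from long primary transcripts in the nucleus by the Microprocessor, in which DGCR8 binds the RNA and the RNase III enzyme Drosha cuts it. Exportin-5, the product of Xpo5, carries the hairpin precursor to the cytoplasm, where Dicer and its partner TRBP, the product of Tarbp2, cut out the duplex. An Argonaute protein then takes up 1 strand and is guided by it to target messages. Cyclin D1, best known for activating the kinases CDK4 and CDK6 in G1, has also been recovered from chromatin, and has been reported to raise Dicer expression. The comparison asks whether chromatin around the transcription start sites (TSSs) of these genes was enriched in the anti-FLAG over the IgG library.

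The anti-FLAG library held 9255188 tags and the IgG library 9308877 on the autosomes and X, or 3.62 and 3.64 tags per kb of sequenced genome. A tag is 1 mapped 36-bp read position. As a check of the genotype, intron 3 of Ccnd1, 3129 bp long, held 0 tags in each library. Introns 1 (1393 bp) and 2 (433 bp) held 1 tag of each library apiece, while intron 4 (1244 bp) held 14 anti-FLAG and 5 IgG tags. At the genome-wide tag density, intron 2 is too short to show a loss of tags. The libraries also differed in base composition: in 500-bp windows over 10 kb from every TSS, the anti-FLAG to IgG ratio was 0.953 at 40 to 42% GC and 2.71 at 64 to 66% GC. Ratios are therefore given first as scaled to library totals and then also divided by a ratio expected from GC. For that, each window was cut into pieces of 500 bp, the tags expected of each library at each piece's GC were summed, and the sums were divided, so the expectation is not the ratio at the window's mean GC. Pieces above 66% GC took the ratio of 64 to 66%, because fewer than 200 distant windows were available in each higher stratum. The few windows at 66 to 68% had a ratio of 3.34, so corrected ratios may be too high where the centre is richer in GC, as at 5 of the 6 genes within 250 bp. ChIP-seq does not measure expression, so the fibroblast label was not checked against marker genes.

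Anti-FLAG tags outnumbered scaled IgG tags within 1 kb of the TSS at 6 of the 6 genes, but the excess passed the test only at Tarbp2 and Dicer1. The share of all promoters with such an excess was not counted, but an excess was common, as their median log2 ratio was also above 0. Of the 5 genes whose tags in the 2 libraries summed to 20 or more, 2 were higher and 0 lower (2-sided exact binomial test on tags, Benjamini-Hochberg adjusted over 10939 promoters). Over all tested promoters 29.7% were higher and 0.0914% lower, so 2 of 5 is close to what promoters in general showed. The median log2 ratio, with 1 tag added to each count, was 0.91 over the 6 genes, against 0.88 over all tested promoters and 0.59 over all protein-coding genes. After division by the GC expectation the median of the 6 was 0.07, against 0.41 over tested promoters and 0.20 over all genes. None of the 5 tested genes was then called, and 1.44% of all tested promoters were called higher and 0.0183% lower. Of the 5, 1 had an unadjusted exact p under 0.05, a share that was not counted over all tested promoters.

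**Figure D1:**
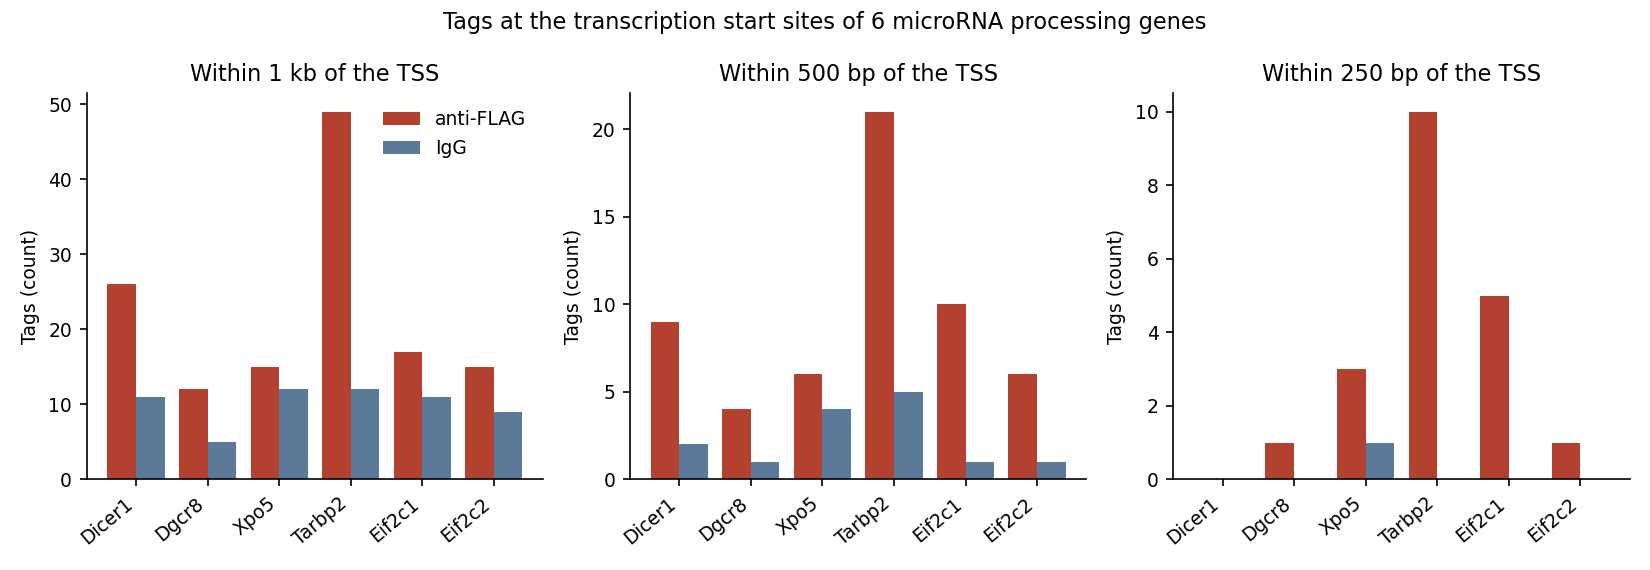
Tag counts (vertical axis) of the anti-FLAG and IgG libraries within 1 kb, 500 bp and 250 bp of the TSS of each gene; each bar is 1 library and the panels have separate scales. Tarbp2 had the highest anti-FLAG bar in each panel, with 49, 21 and 10 tags, and Dicer1 had 0 tags of either library within 250 bp.

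Dicer1, the gene of the RNase III enzyme that cuts microRNA precursors, showed 26 anti-FLAG against 11 IgG tags within 1 kb either side of its TSS. The gene (ENSMUSG00000041415.8) spans 105925952 to 105990162 on chromosome 12, transcribed from the minus strand, and the transcript with the longest coding sequence has 27 exons and encodes 1916 amino acids. The anti-FLAG count was 2.38 times the scaled IgG count (interval 1.14 to 5.33), a log2 ratio of 1.18 (exact binomial p = 0.0136, adjusted p = 0.0464). This adjusted p stood just under the threshold of 0.05, and 66.6% of tested promoters had a lower log2 ratio. The call was lost when tags were not moved to the fragment centre (log2 ratio 0.96, adjusted exact p = 0.0818, with 29.4% of promoters higher), and when promoters with 10 or more tags were tested (adjusted exact p = 0.0681, 16.6% higher). It was also lost when all promoters with tags were tested (adjusted exact p = 0.0802, 12.2% higher), and with 2.5 kb either side (log2 ratio 0.62, adjusted exact p = 0.188). It was kept when libraries were scaled on background bins (adjusted exact p = 0.0259), a setting with 37.7% of promoters higher and 0.0823% lower.

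The tags at Dicer1 lay on the flanks of a GC-rich centre that neither library covered. Within 250 bp of the TSS, where GC was 77.05%, both libraries held 0 tags, as they did at 10.2% of all protein-coding genes. Within 500 bp there were 9 anti-FLAG and 2 IgG tags (ratio 4.53, interval 0.937 to 43.05), too few for the test. The remaining 17 anti-FLAG and 9 IgG tags lay 500 to 1000 bp from the TSS. In bins of 250 bp, the highest anti-FLAG count was 8, against 2 IgG tags, in the bin that starts at -500 bp. There were 17 anti-FLAG against 7 IgG tags upstream and 9 against 4 downstream, so the excess lay on both sides. Anti-FLAG tags were split evenly between strands, 12 on the plus and 14 on the minus strand. The 2-kb window had 60.7% GC in all, and its pieces gave an expected ratio of 1.71. Divided by it, the ratio at Dicer1 was 1.39 (interval 0.666 to 3.13), a log2 ratio of 0.41 (exact p = 0.399, adjusted p = 0.741), equal to the median of tested promoters to 2 decimals. The other annotated starts of Dicer1, 13115 and 31283 bp downstream, had 6 against 4 and 8 against 6 tags within 500 bp.

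Tarbp2 encodes TRBP, the double-stranded RNA binding partner of Dicer, and had the highest ratio of the 5 tested genes. It spans 102348623 to 102354107 on chromosome 15, plus strand (ENSMUSG00000023051.4), and its longest coding transcript has 9 exons and encodes 365 amino acids. Within 1 kb of the TSS there were 49 anti-FLAG and 12 IgG tags, a ratio of 4.11 (interval 2.15 to 8.48) and a log2 ratio of 1.95 (exact binomial p = 1.14e-06, adjusted p = 1.39e-04). Of tested promoters, 93.99% had a lower log2 ratio. Within 500 bp the counts were 21 and 5 (ratio 4.22, interval 1.55 to 14.3, adjusted exact p = 0.00495). At that width Tarbp2 was the 1 gene of the 6 with enough tags to test, and 62.3% of all tested promoters were higher and 0.0997% lower. Within 250 bp there were 10 anti-FLAG and 0 IgG tags. IgG tags were scarce downstream of the TSS, with 2 in the first kb against 10 upstream, whereas anti-FLAG had 21 downstream and 28 upstream.

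Tarbp2 has 14 annotated transcripts whose starts spread over 2848 bp. Around the 13 starts in the first 610 bp, anti-FLAG counts within 500 bp were 18 to 26 and IgG counts 0 to 5, and around the most downstream start both were 5. These windows overlap and share tags. The start of the longest coding transcript lies 267 bp downstream of the gene's 5' end, and centring the 1-kb window there gave a log2 ratio of 1.77 (adjusted exact p = 8.88e-04, with 30.0% of promoters higher). The 2-kb window had 55.7% GC in all, and its pieces gave an expected ratio of 1.64. Divided by it, the ratio was 2.51 (interval 1.32 to 5.18), a log2 ratio of 1.24 (exact p = 0.00335), but the adjusted p of 0.0995 did not pass. At 500 bp the GC-corrected log2 ratio was 0.78 (adjusted exact p = 0.383), where 9.07% of tested promoters were higher and 0.0332% lower. A second TSS, that of the kinase gene Map3k12, lies at -1128 bp on the other strand, so the upstream tags cannot be assigned to Tarbp2 alone.

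The 250 bases upstream of the TSS are shown for these 2 genes because they are the 2 that passed the test and differ in base composition and tag coverage there. They are read 5' to 3' towards the gene from build NCBIM37, for Dicer1 from chr12:105990163-105990412 on the minus strand and for Tarbp2 from chr15:102348373-102348622 on the plus strand. Capitals mark matches, on either strand, to the GC box GGGCGG, the CCAAT box CCAAT and the CRE core TGACG, which the full CRE contains.
Dicer1: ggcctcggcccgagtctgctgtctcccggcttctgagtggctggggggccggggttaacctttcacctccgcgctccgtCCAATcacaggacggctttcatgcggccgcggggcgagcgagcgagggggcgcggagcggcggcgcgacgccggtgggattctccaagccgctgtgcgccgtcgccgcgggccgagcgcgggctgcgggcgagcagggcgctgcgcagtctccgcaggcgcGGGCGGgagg
Tarbp2: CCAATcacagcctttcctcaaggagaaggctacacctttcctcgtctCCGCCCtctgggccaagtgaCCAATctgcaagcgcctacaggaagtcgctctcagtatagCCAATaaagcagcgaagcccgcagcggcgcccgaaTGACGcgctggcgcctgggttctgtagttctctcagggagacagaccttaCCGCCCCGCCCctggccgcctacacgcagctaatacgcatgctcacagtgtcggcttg
The Dicer1 stretch is 76.0% GC with 39 CpG dinucleotides and held 0 anti-FLAG and 0 IgG tags. The Tarbp2 stretch is 60.0% GC with 18 CpG and held 6 anti-FLAG and 0 IgG tags. Dicer1 has 1 GC box and 1 CCAAT box, and Tarbp2 has 3 GC boxes, of which 2 overlap, 3 CCAAT boxes and 1 CRE core. Of the same 250-base stretches of all protein-coding genes, 39.6% hold a GC box, 34.97% a CCAAT box and 19.4% a CRE core. The GC box is the core bound by SP1-type factors and the CCAAT box that of NF-Y.

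Dgcr8, the gene of the RNA-binding subunit of the Microprocessor, showed 12 anti-FLAG against 5 IgG tags within 1 kb and fell short of the 20 tags needed for the test. It spans 18254041 to 18289342 on chromosome 16, minus strand (ENSMUSG00000022718.5), and its coding transcript has 14 exons. The ratio was 2.41 (interval 0.792 to 8.75), similar in size to that of Dicer1 but from fewer tags. With the minimum lowered to 10 tags the adjusted exact p was 0.241. Within 500 bp there were 4 anti-FLAG and 1 IgG tags, and within 250 bp, at 76.5% GC, 1 and 0. The bin of most anti-FLAG tags, 5 against 1 IgG tag, began 500 bp downstream. Divided by the GC expectation of 1.49, the ratio was 1.63 (interval 0.533 to 5.89).

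Xpo5, the gene of the nuclear export receptor exportin-5, had the lowest ratio of the 6. It spans 46339804 to 46379248 on chromosome 17, plus strand (ENSMUSG00000067150.5), and has 32 exons. Its counts were 15 anti-FLAG and 12 IgG tags within 1 kb (ratio 1.26, interval 0.549 to 2.94, adjusted exact p = 0.674), 6 and 4 within 500 bp, and 3 and 1 within 250 bp. Of tested promoters, 19.7% had a lower log2 ratio. Divided by the GC expectation of 1.49, the ratio was 0.846 (interval 0.370 to 1.98). Polh, the gene of DNA polymerase eta, starts at -230 bp on the other strand, and the tags of this shared promoter cannot be assigned to either gene.

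Eif2c1 and Eif2c2 encode Argonaute proteins, the core of the RNA-induced silencing complex (RISC), and the product of Eif2c2 can cut target RNA. Both are transcribed from the minus strand, Eif2c1 (ENSMUSG00000041530.8) on chromosome 4 at 126112256 to 126145878 and Eif2c2 (ENSMUSG00000036698.8) on chromosome 15 at 72932055 to 73015377. Within 1 kb Eif2c1 showed 17 anti-FLAG against 11 IgG tags (ratio 1.55, interval 0.687 to 3.67, adjusted exact p = 0.380). Eif2c2 had 15 and 9 (ratio 1.68, interval 0.687 to 4.34, adjusted exact p = 0.339). Neither passed. Divided by the GC expectations of 1.82 and 2.31, the ratios were 0.854 (interval 0.377 to 2.02) and 0.725 (interval 0.297 to 1.88). Eif2c2 had the GC-richest 2-kb window of the 6 genes, at 68.6%.

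The value at Eif2c1 depended on the width of the window more than that of the other genes. Within 500 bp it had 10 anti-FLAG and 1 IgG tag (ratio 10.1, interval 1.43 to 437), a log2 ratio of 2.47 against 0.59 within 1 kb. With the minimum lowered to 10 tags this narrower window passed (adjusted exact p = 0.0264), as did 33.3% of promoters tested in that way. Divided by the GC expectation of 2.71, its ratio was 3.71 (interval 0.527 to 161). With tags not moved the counts were 10 and 3, a log2 ratio of 1.47. The remaining tags, 500 to 1000 bp away, were 7 anti-FLAG and 10 IgG. Within 250 bp there were 5 anti-FLAG and 0 IgG tags. Its longest coding transcript starts 4718 bp downstream, where 500-bp flanks held 6 and 2 tags. Eif2c2 had 6 and 1 tags within 500 bp and 1 and 0 within 250 bp.

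**Figure D2:**
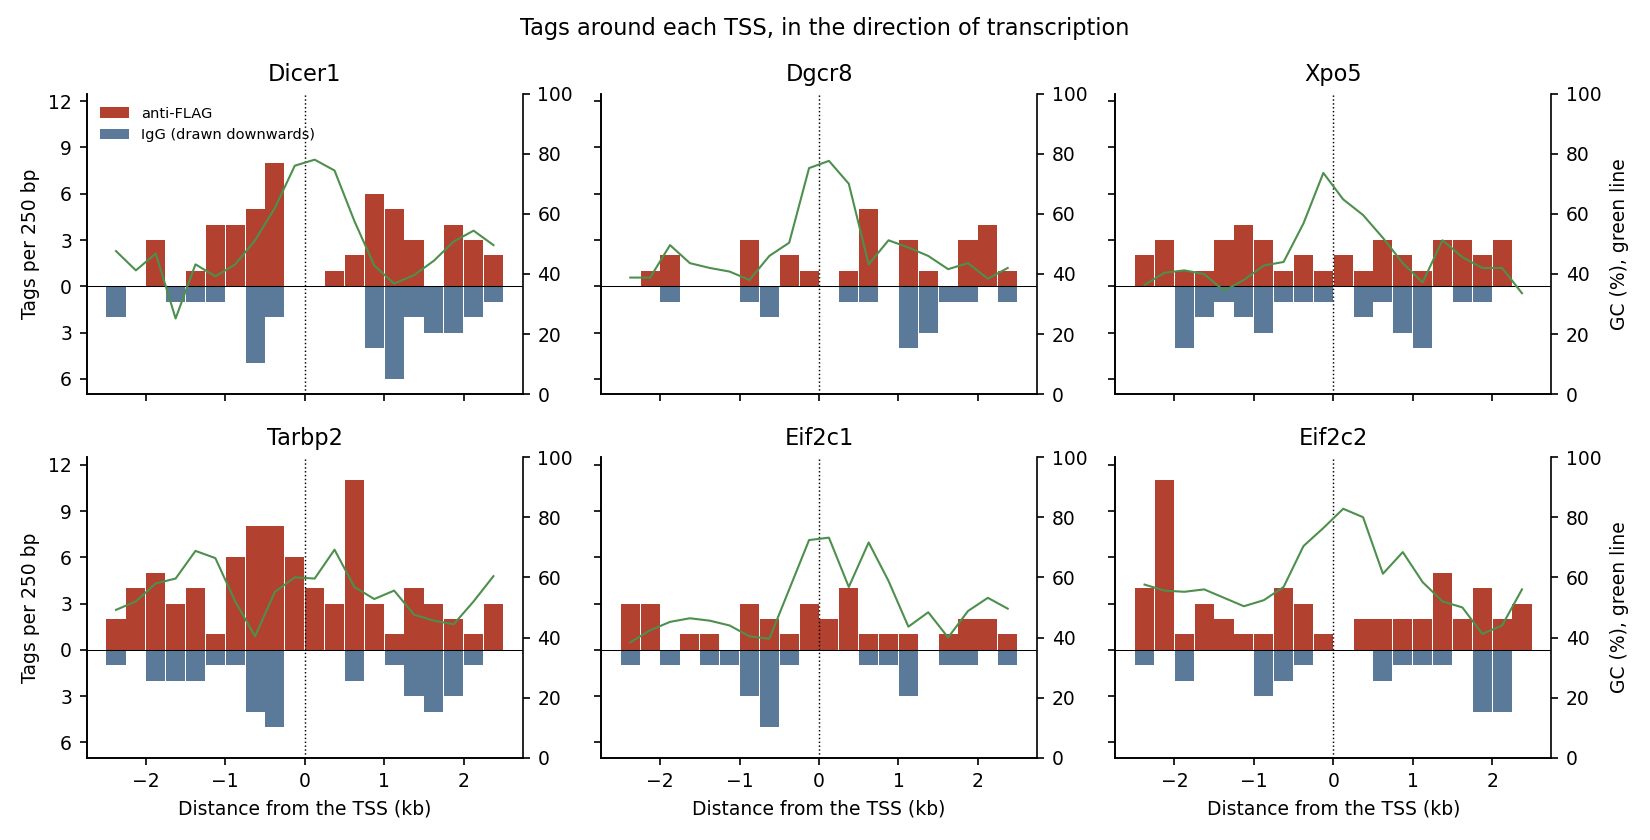
Tags per 250-bp bin (left axis, anti-FLAG upwards and IgG downwards, both as counts) and GC content (right axis, green line, percent) against the distance from the TSS in kb, in the direction of transcription. At Dicer1 the 2 bins that meet at the TSS were empty in both libraries and GC reached 78.0%, and at Eif2c2 11 anti-FLAG tags stood in the bin starting 2250 bp upstream.

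Close to the TSS, IgG tags were nearly absent at these genes. Within 250 bp the 6 genes together held 20 anti-FLAG and 1 IgG tags, within 500 bp 56 and 14, and within 1 kb 134 and 60. The ratio of these sums, scaled to library totals, was 4.02 within 500 bp and 2.25 within 1 kb, and over all protein-coding genes it was 2.21 and 1.69. Within 250 bp it was 2.99 over all genes, and 37.3% of all genes had 0 IgG tags there. GC within 250 bp of these 6 TSSs ran from 59.9% at Tarbp2 to 79.6% at Eif2c2, and the part of base composition in the missing IgG tags was not tested.

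**Figure D3:**
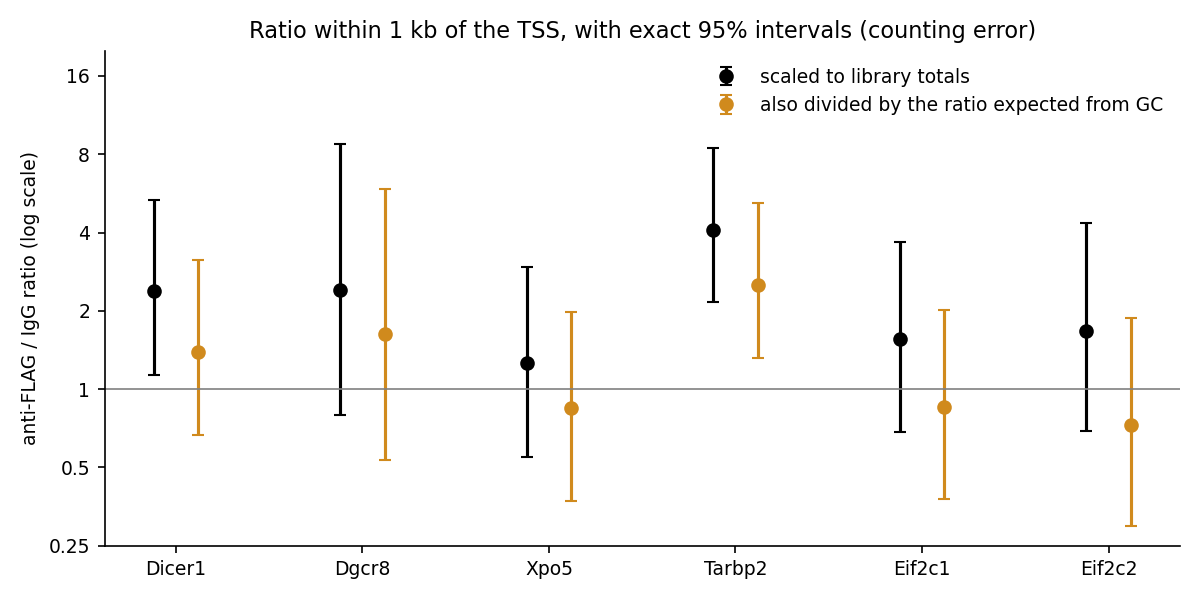
Anti-FLAG to IgG ratio within 1 kb of each TSS (vertical axis, log scale), scaled to library totals (black) and also divided by the ratio expected from GC (orange); bars are exact 95% intervals for counting error in 1 library per antibody. The interval of Tarbp2 stayed above 1 on both scales, that of Dicer1 on the first only, and those of the other 4 genes included 1 on both.

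The ratios of the 6 genes did not differ from one another beyond counting error. Of the 15 pairs, 0 passed Fisher's exact test on tags (2-sided, Benjamini-Hochberg over the pairs), and 1 had an unadjusted p under 0.05. That pair was Xpo5 and Tarbp2, with an odds ratio of 0.306 (interval 0.102 to 0.927, exact p = 0.0211, adjusted p = 0.316). For Dicer1 and Tarbp2, the enzyme and its partner, it was 0.579 (interval 0.203 to 1.68, adjusted exact p = 0.876). These intervals still allow differences of several fold, so the genes are not shown to be alike. In order of the ratio within 1 kb, Tarbp2 was followed by Dgcr8, Dicer1, Eif2c2, Eif2c1 and Xpo5, and no neighbours in this order differed by the test.

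**Figure D4:**
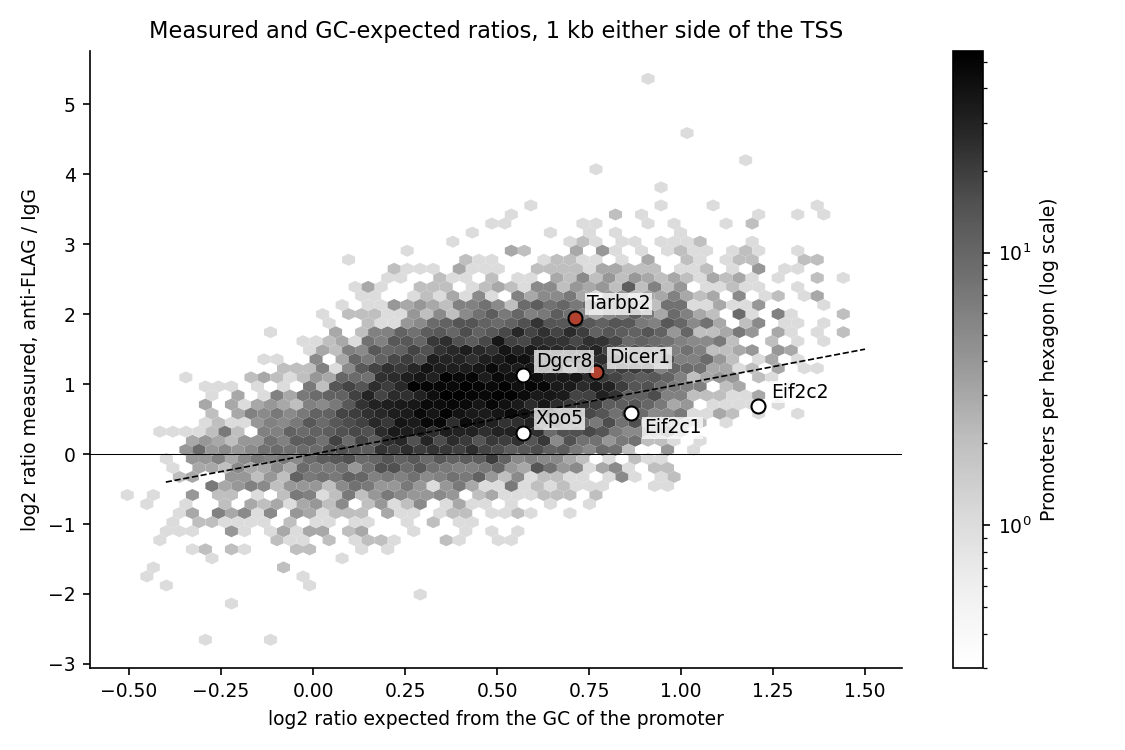
Measured log2 ratio within 1 kb of the TSS (vertical axis) against the log2 ratio expected from GC (horizontal axis) for the 10939 tested promoters (grey, log colour scale) and the 6 genes (circles, red where called higher); on the dashed line both are equal. Tarbp2 at 1.95, Dicer1 at 1.18 and Dgcr8 at 1.12 lay above the line, and Xpo5, Eif2c1 and Eif2c2 lay below it.

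Scaled to library totals, the libraries were closer to even along the rest of each gene than at its promoter. In the 63.2 kb of Dicer1 beyond 1 kb from the TSS there were 364 anti-FLAG and 394 IgG tags, a ratio of 0.929 (interval 0.804 to 1.07). The odds of an anti-FLAG tag were 2.56 times higher at the Dicer1 promoter than in this body (interval 1.20 to 5.82, Fisher's exact p = 0.0107, adjusted over the 6 genes 0.0322). For Tarbp2, with 22 and 20 tags in 4.48 kb of body, they were 3.71 times higher (interval 1.42 to 9.82, adjusted exact p = 0.0268). This comparison was run for the 6 genes only, so the share of all genes that would pass is not known. Promoters in general were high, with a ratio of summed tags within 1 kb of 1.695 over all protein-coding genes. The other 4 genes did not pass, from 2.55 times at Dgcr8 (interval 0.811 to 9.41, adjusted exact p = 0.172) to 1.18 times at Eif2c2 (interval 0.478 to 3.10, adjusted exact p = 0.834). The bodies are poorer in GC than the promoters, 43.6% at Dicer1 and 52.4% at Tarbp2. With the GC expectations of both parts taken into account, the values were 1.56 for Dicer1 (adjusted exact p = 0.536) and 3.23 for Tarbp2 (interval 1.24 to 8.53, adjusted exact p = 0.0587), and neither passed. The value was 1.765 for Dgcr8, but below 1 for Xpo5 (0.952), Eif2c1 (0.81) and Eif2c2 (0.645), and none of these passed. With 500-bp promoters no gene passed, with a smallest adjusted exact p of 0.100.

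Eif2c2 had the highest ratio of the 6 gene bodies. Its 82.3 kb of body held 458 anti-FLAG and 325 IgG tags, a ratio of 1.42 (interval 1.23 to 1.64), against a GC expectation of 1.26, which lies inside the interval. The interval lay above those of the Dicer1 and Dgcr8 bodies (for Dgcr8 0.948, 0.761 to 1.18). It overlapped those of the bodies of Xpo5 (0.999, 0.787 to 1.27), Tarbp2 (1.11, 0.576 to 2.14) and Eif2c1 (1.17, 0.868 to 1.57). Differences between bodies were not tested. Eif2c2 was also the 1 gene of the 6 that overlapped anti-FLAG regions, in the gene or in the 5 kb upstream, as did 15.3% of all protein-coding genes. A longer gene offers more room for such an overlap. Eif2c2 is the longest of the 6, at 83323 bp, and the 15.3% is over genes of all lengths. Regions are merged 500-bp windows with at least 10 anti-FLAG tags, 2-fold over the local IgG background and a one-sided exact Poisson p under 1e-05.

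The stronger of the 2 regions lay in intron 1 of Eif2c2, an intron 38200 bp long. It covered 72985001 to 72985750 of chromosome 15, centred 30002 bp downstream of the TSS. Its strongest window had 22 anti-FLAG and 2 IgG tags, 7.63-fold over the local background (one-sided exact Poisson p = 7.45e-13). The whole region held 28 and 5 tags at 54.0% GC. It overlapped a region of the call at p under 1e-07 and one of the GC-corrected call, in which 8.98% of genes had a region. The second covered 73017251 to 73017750, centred at -2123 bp from the TSS and outside annotated exons, with 12 anti-FLAG and 1 IgG tags (5.25-fold, one-sided exact Poisson p = 5.25e-06). It overlapped neither. It is outside the 1-kb window and inside the 2.5-kb window, in which the log2 ratio of Eif2c2 was 1.29 and passed (adjusted exact p = 0.00552), where 10.4% of promoters were higher and 0.148% lower.

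The central 250 bases of the strongest window of the intronic region are shown because no other stretch in or near the 6 genes had a call that held with the GC correction. They are given from chr15:72985126-72985375 in build NCBIM37 on the minus strand, which is the strand of Eif2c2, and held 14 anti-FLAG and 1 IgG tags.
Eif2c2 intron 1: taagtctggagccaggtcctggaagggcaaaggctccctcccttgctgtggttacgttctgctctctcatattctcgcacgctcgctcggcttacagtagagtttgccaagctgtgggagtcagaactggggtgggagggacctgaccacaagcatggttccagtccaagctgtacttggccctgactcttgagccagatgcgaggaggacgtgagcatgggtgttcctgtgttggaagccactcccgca
This stretch is 57.2% GC with 8 CpG dinucleotides, and there are no capitals because it held 0 matches to any motif searched. Of all anti-FLAG regions in the genome, 16.97% held an AP-1 motif TGANTCA and 14.5% a GC box in the same 250 bases.

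Few of the other motifs occurred upstream of the 6 TSSs. None of the 250-base stretches held the E2F motif (TTTCCCGC, TTTGGCGC, TTTCGCGC or TTTGCCGC), the full CRE TGACGTCA, the AP-1 motif, the E-box CACGTG, the ETS motif CCGGAAG or the TATA box TATAAA, on either strand. These are found in 2.15%, 1.91%, 6.0%, 6.52%, 8.23% and 12.3% of all protein-coding promoters of that length. Xpo5 held 2 copies of the consensus NRF1 motif, at -129 and -106 from its TSS, a motif found in 0.895% of promoters, and also 2 CRE cores and 1 GC box. Its stretch overlaps an exon of Polh. Dgcr8 held 4 CCAAT boxes and 1 GC box, and Eif2c1 held 2 GC boxes and 1 CCAAT box. Eif2c2 held no match to any motif searched. A match is a run of letters and not a measured binding site.

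The other genes of the pathway were taken from a list of 60 genes by role, of which all 60 were annotated and 54 are not among the 6. Of these 54, 37 were tested within 1 kb, 17 were higher and 0 lower, or 45.9% against the 29.7% of all tested promoters. Their median log2 ratio was 0.80 over the 54 genes, against 0.59 over all protein-coding genes. After GC correction 2 of the 37 were higher, against 1.44% of all tested promoters, and the median was 0.38, against 0.20 over all genes. The 2 were Ilf2 and Dcp1a. Of the 37, 6 had an unadjusted exact p under 0.05 after GC correction. That share was not counted over all tested promoters, so the 6 cannot be set against it.

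Among the Microprocessor and its cofactors, 6 of 9 tested genes other than Dgcr8 were higher, or 66.7% against the 29.7% of all tested promoters. Drosha, the nuclear RNase III partner of Dgcr8, had 30 anti-FLAG and 14 IgG tags (log2 ratio 1.06, adjusted exact p = 0.0519) and missed the threshold narrowly. A divergent gene starts at -158 bp from it. Ilf2, the gene of the RNA-binding protein NF45, had 41 and 10 tags (ratio 4.12, interval 2.03 to 9.23, adjusted exact p = 4.92e-04), of which 33 and 2 lay within 500 bp. With the GC correction its log2 ratio was 1.82 (adjusted exact p = 0.0121). Khsrp, whose product binds precursors of let-7 and other microRNAs, had 20 and 4 (ratio 5.03, interval 1.69 to 20.2, adjusted exact p = 0.00789). After GC correction its adjusted exact p was 0.385. In nuclear export, 3 of 4 tested genes other than Xpo5 were higher, led by Rcc1, the exchange factor of the GTPase Ran, with 28 and 10 tags, and by Ran itself with 22 and 7. Neither passed with the GC correction (adjusted exact p = 0.260 and 0.690). The TSSs of 4 other genes lie within 2 kb of that of Rcc1, the nearest at -81 bp. The tags there cannot be assigned to Rcc1 alone.

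Beyond Dicer1 and Tarbp2, the list held 1 more partner of Dicer, Prkra, the gene of PACT, with 21 anti-FLAG and 9 IgG tags (adjusted exact p = 0.0766). The gene Dfnb59 starts at -461 bp from the Prkra TSS, so these tags cannot be assigned to Prkra alone. Among Argonautes and RISC partners, 3 of 9 tested genes other than Eif2c1 and Eif2c2 were higher. This was 33.3%, near the 29.7% of all tested promoters. Among the 3 were the chaperone genes Hsp90aa1 (32 and 13 tags, adjusted exact p = 0.0217) and Hsp90ab1 (22 and 7, adjusted exact p = 0.0242). Neither chaperone gene passed with the GC correction. The 2 other Argonaute genes, named after their values were seen, did not pass: Eif2c3 had 17 and 10 tags, and Eif2c4 had 4 and 9, too few to test. Of the 4 Argonaute promoters, 3 were thus tested within 1 kb and none was called, against 29.7% of all tested promoters. So few genes cannot show a difference from that share. Within 500 bp and with a minimum of 10 tags Eif2c1 did pass, as given above.

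Among GW182 proteins and the factors that silence and decay target messages, 4 of 9 tested genes were higher. This was 44.4%, against 29.7% of all tested promoters. Pabpc1, the gene of the cytoplasmic poly(A)-binding protein, had 27 anti-FLAG and 2 IgG tags (ratio 13.6, interval 3.41 to 118, adjusted exact p = 1.16e-04 before and 0.106 after GC correction). Cnot1, the scaffold of the CCR4-NOT deadenylase, had 40 and 8 (adjusted exact p = 1.78e-04 before and 0.157 after GC correction). A noncoding RNA gene starts 636 bp downstream of the Cnot1 TSS, inside this window. Dcp1a, a decapping cofactor gene, had 42 and 10 (ratio 4.22, interval 2.09 to 9.44, adjusted exact p = 3.62e-04), and stayed higher with the GC correction (log2 ratio 1.69, adjusted exact p = 0.0212). Among tailing and turnover genes 1 of 5 tested was higher, or 20.0%, below the 29.7% of all tested promoters. It was the deadenylase gene Parn with 28 and 11 (adjusted exact p = 0.0281), while the uridyl transferase gene Zcchc6 had 20 and 11 (0.197). The 8 genes of the germline PIWI pathway, which serves small RNAs of germ cells, had 2 to 10 anti-FLAG and 3 to 9 IgG tags each, and none reached 20 tags. Their median log2 ratio was 0.37, and -0.04 with the GC correction.

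**Figure D5:**
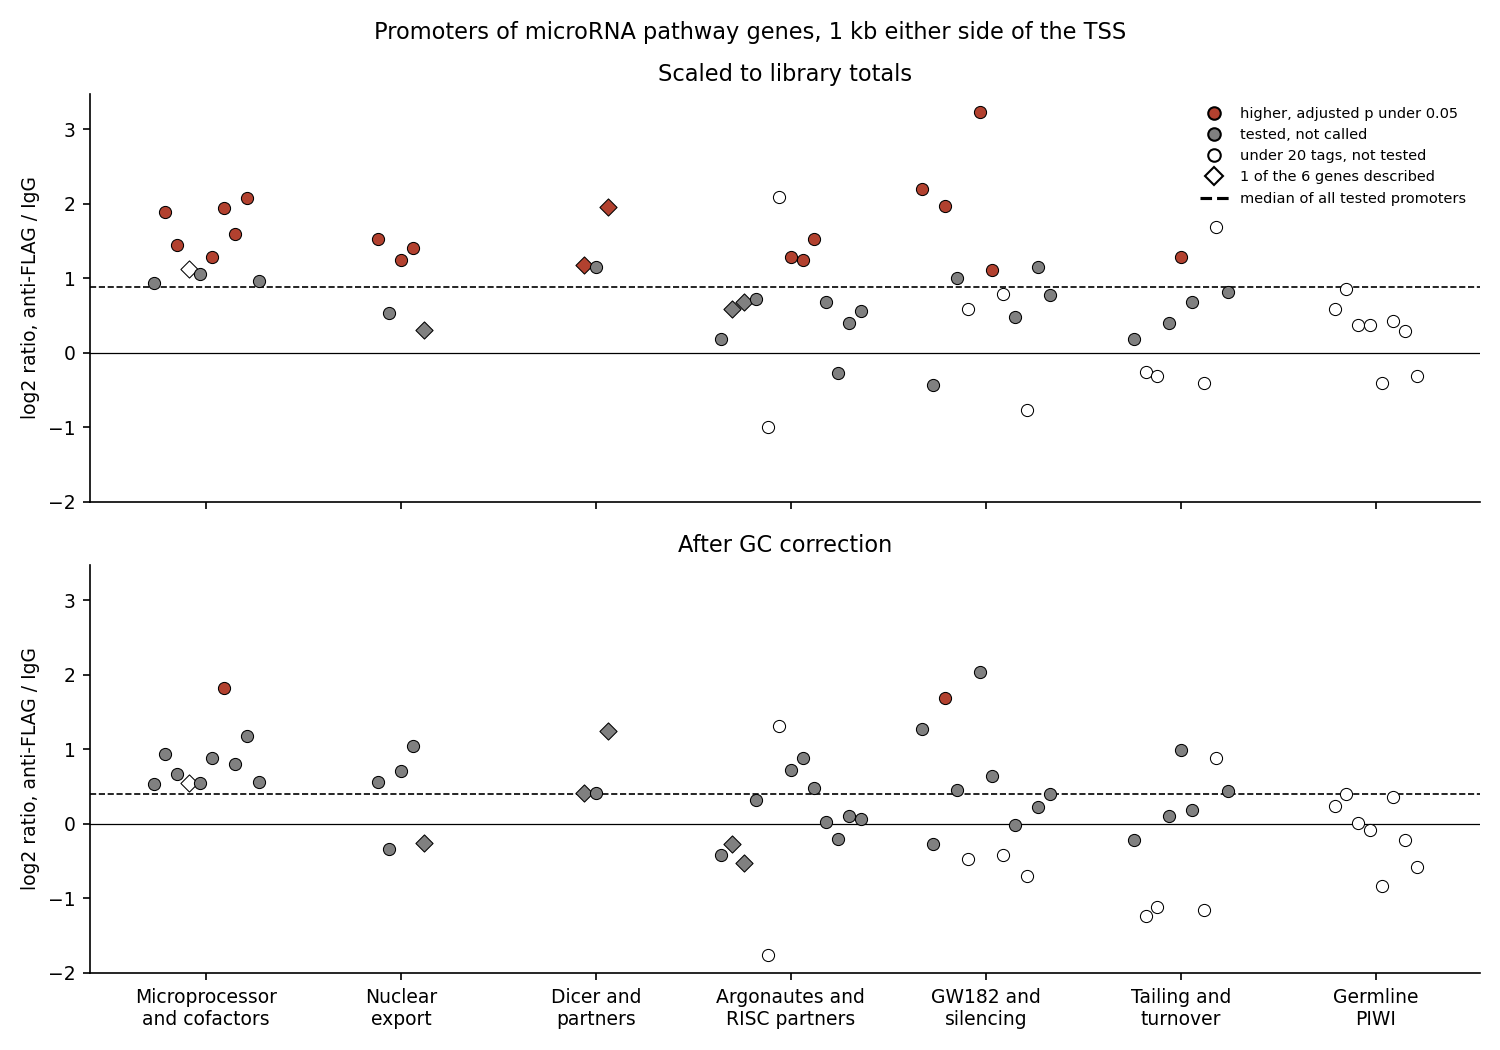
Log2 anti-FLAG to IgG ratio within 1 kb of the TSS (vertical axis) for the 60 listed genes by role, scaled to library totals (top) and after GC correction (bottom); each point is 1 gene and diamonds are the 6 genes described. The dashed lines are the medians of all tested promoters, 0.88 and 0.41, and 2 points, Ilf2 and Dcp1a, stayed called in the lower panel.

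The counts at Dicer1 were not unusual among promoters. Another 31 protein-coding genes had the same pair of counts, 26 anti-FLAG and 11 IgG tags, in the 2 libraries. The 3 nearest to it in promoter GC were Eif1ad at 60.8%, Banf1 at 61.1% and Ywhaq at 58.5%, where Eif1ad and Banf1 are divergent neighbours and share tags. At distances of 10 to 100 kb from the TSS, tags per kb ran from 3.66 at Eif2c1 to 6.41 at Tarbp2 in the anti-FLAG library and from 3.34 at Dgcr8 to 6.31 at Tarbp2 in the IgG library. Tarbp2 thus lies in a stretch of high tag density in both libraries, at 6.41 and 6.31 tags per kb.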

How the data were processed

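The deposited files list mapped tags, 1 line per tag. The authors' score column is 512 in every line and was left aside; the other columns are positions. For the aligner, build and filters: not given in the sources used here. All tags were 36 bp long and 0 tags shared position and strand within a library, so at most 1 tag per position and strand could count. Tags fitted the chromosome lengths of NCBIM37, apart from 1 anti-FLAG tag, and GENCODE vM1 genes of that build were used. The genes and lists were chosen with earlier results of these data known.

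Tags of both libraries were moved 78 bp downstream, from a strand lag of 157 bp in the anti-FLAG library. The lag of the IgG library was 131 bp and was not used. IgG tags were scaled by 0.994. Promoters reached 1 kb, or 500 bp, either side of the gene's 5' end. Those with at least 20 tags were tested with the 2-sided exact binomial test, Benjamini-Hochberg adjusted at 0.05. GC expectations came from distant 500-bp windows in strata of 2 GC points, applied to each 500-bp piece of a promoter or body. Pairs and promoter against body used Fisher's exact test, and its noncentral form with GC. Named list genes were the 2 of smallest p per role, Drosha, and those passing with the GC correction; Eif2c3 and Eif2c4 were added after their values were seen. The test was checked on simulated data. Python 3.11.15, NumPy 2.4.6, SciPy 1.17.1, pandas 2.3.3 and Matplotlib 3.10.9 were used.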

Additional observations from a re-analysis of the deposited data

How the results depend on the processing

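Of the 6 genes, 2 of 5 tested were higher within 1 kb (29.7% of all tested promoters). The count was 1 of 1 with 500 bp either side (62.3%), 1 of 5 with tags not moved (29.4%) and 1 of 6 with a minimum of 10 tags (16.6%). It was 1 of 6 with no minimum (12.2%) and 0 of 5 with the GC correction (1.44%). The count stayed at 2, of 6 with 2.5 kb (10.4%), of 5 with background scaling (37.7%) and of 4 with the start of the longest coding transcript (30.0%). With 2.5 kb the 2 genes were Tarbp2 and Eif2c2. Within 500 bp the count of 1 of 1 became 2 of 4 with a minimum of 10 tags (33.3%) and 0 of 1 with the GC correction (9.07%). The GC correction turned the log2 ratio of Xpo5 to -0.26, of Eif2c1 to -0.27 and of Eif2c2 to -0.52. Of the 54 other pathway genes, 17 of 37 tested were higher within 1 kb (29.7% of all tested promoters), 10 of 12 with 500 bp (62.3%), 8 of 54 with 2.5 kb (10.4%) and 2 of 37 with the GC correction (1.44%). Promoter against body, run for the 6 genes only, gave 2 genes, and 0 with 500 bp or the GC correction. No pair of the 6 genes differed, and 1 gene had a region, under every alternative run. Background scaling moved the median log2 ratio of all tested promoters from 0.88 to 1.01. Of 54 log2 ratios of the 6 genes under the alternatives, 51 were above 0 and 3 below, and all 3 came from the GC correction. An adjusted p of the exact binomial test was available for 43, and 12 of these were under 0.05. Several alternatives reuse the same counts, and a changed tag minimum leaves the ratio as it was. The 54 values are therefore not separate checks of the direction. Fewer promoters reach the minimum at 500 bp. With a minimum of 10 tags or none, Dicer1 kept its counts and its exact binomial p of 0.0136. The adjustment then ran over 18206 or 21702 promoters and not over 10939. The cause of the other changes was not tested. No paired analysis was possible because each antibody has 1 library. For the same reason no library could be left out. Depth limits these results most close to the TSS, where 1 of the 6 genes reached the minimum of 20 tags.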
